A study of Arabidopsis thaliana with 6 samples.

Results

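Plastid sigma factors are nuclear-encoded proteins that are imported into the chloroplast, where they bind the plastid-encoded RNA polymerase (PEP) and lead it to promoters of the plastid genome. PEP resembles a bacterial RNA polymerase and cannot recognise its promoters without such a factor, so the set of sigma factors made by the nucleus is one route by which the nucleus and light set plastid transcription. In Arabidopsis, SIG2 and SIG6 serve broad sets of plastid genes while chloroplasts form in the seedling, SIG3 and SIG4 are tied to few promoters, and SIG5 answers blue light, stress and the circadian clock.

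The genes described here are the nuclear rows of the authors' deposited tables whose description contains the words sigma factor, with AT5G24120 (SIG5) named in addition. This gave 5 genes of 5330 in the tables: SIG5, listed higher, and SIG2, SIG3, SIG4 and SIG6, listed lower. The tables name them SIGE, SIGB, SIGC, SIGD and SIGF. The Arabidopsis family has 6 members, and the remaining one, SIG1, is not analysed here. Because the tables hold only genes that passed the authors' thresholds (false discovery rate under 0.05 with a change of 1 or more log2 units), each of the 5 genes had to differ between the genotypes to be present, and their presence is not itself support for a change.

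The RNA came from whole seedlings of Arabidopsis thaliana, ecotype Columbia-0: a line labelled with the genotype epl1a epl1b (epl1ab) and wild type (Col-0), with 3 sequenced libraries of each. EPL1A and EPL1B encode the Arabidopsis Enhancer of Polycomb subunits of NuA4, a complex that acetylates histone H4, and the series title asks how this complex coordinates nuclear and plastid transcription as chloroplasts form. All seedlings were 14 days old and were grown on plates with 1% sucrose at 22 °C, with 16 h of light (100 µmol photons m-2 s-1) and 8 h of dark, after 3 days at 4 °C, and were taken 8 h after dawn. The labels give no insertion sites and do not name the plants pooled in a library. The design text speaks of 3 independent experiments.

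Levels are normalised reads, that is, deposited read counts divided by a scaling factor for each library relative to Col-0 replicate 1. Reads in listed genes came to between 7355421 and 8625707 in the epl1ab-labelled libraries and between 9265086 and 10938542 in the Col-0 libraries; these are sums over the tables and not library depths. The targeted genes did not both follow the label: EPL1A had 128.1, 121.5 and 123.8 normalised reads in the epl1ab-labelled libraries and 360.0, 378.1 and 363.6 in Col-0, while EPL1B had 17029, 16995 and 17128 against 743.0, 761.6 and 653.9. The count per gene does not show where in EPL1B the reads lie, so the libraries are called epl1ab-labelled and every direction is drawn between labels. Seed maturation transcripts also stood apart within the labelled group. The 14 listed genes of a list of 15 summed to 1131, 198520 and 291147 normalised reads in epl1ab-labelled replicates 1, 2 and 3, against 43.9 to 401.0 in the Col-0 libraries. Of other tissue markers, only LHCB3 of 5 leaf markers was listed. LHCB3, an antenna protein of green tissue, had 59928 to 66893 normalised reads in the epl1ab-labelled libraries and 149675 to 176868 in Col-0. Of 4 root markers 2 were listed, in opposite directions. PYK10, a beta-glucosidase of roots, had 169605, 246473 and 260326 normalised reads in the epl1ab-labelled libraries and 93557, 100241 and 109617 in Col-0, while IRT1, the iron transporter of the root epidermis, had 27.7, 8.68 and 45.2 against 111.0, 103.1 and 159.8. The part of these tissue markers in the sigma factor values was not tested. In whole seedlings, fewer cells of a type and less RNA per cell cannot be told apart.

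SIG5 transcripts were 5.11-fold higher in the epl1ab-labelled seedlings, the only rise among the 5 genes. The gene (AT5G24120) lies on the minus strand of chromosome 5 from 8157151 to 8160343 (TAIR10) and has 3 annotated transcripts. SIG5 steers PEP to the light-responsive promoter of psbD, which encodes the D2 reaction centre protein of photosystem II. It had 1457, 1180 and 1370 normalised reads in epl1ab-labelled replicates 1, 2 and 3, against 256.0, 273.9 and 253.8 in Col-0 replicates 1, 2 and 3. The groups did not overlap, and the lowest epl1ab-labelled library stood well above the highest Col-0 library. The means were 1335 ± 142 and 261.2 ± 11.04 normalised reads (SD, n = 3 each). In edgeR's quasi-likelihood test the log2 fold change was 2.35, SE 0.11, with a Benjamini-Hochberg adjusted p of 2.04e-06. Among the epl1ab-labelled libraries its highest level was in replicate 1, as was that of each other sigma factor gene described here. Replicate 1 was also the epl1ab-labelled library with the lowest sum of seed maturation transcripts. When that replicate alone stood for the epl1ab-labelled group, the log2 fold change was 2.48, a value that rests on 1 library and assumes that it varies like the Col-0 libraries. With DESeq2 size factors of the listed genes the log2 fold change was 1.25, still called higher (DESeq2 adjusted p = 6.79e-11).

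The other 4 sigma factor genes were 3.15-fold to 4.03-fold lower. SIG2 (AT1G08540, chromosome 1, 2703295 to 2706860, plus strand) fell furthest; it is needed for transcription of several plastid tRNA genes, among them the tRNA for glutamate with which chlorophyll synthesis begins. It had 1797, 1660 and 1632 normalised reads in the epl1ab-labelled libraries, against 7104, 6889 and 6537 in Col-0. The spread within each group was small, 5.21% of the mean in the epl1ab-labelled libraries and 4.18% in Col-0. In the edgeR fit its log2 fold change was -2.01, with an SE of 0.07 and an adjusted p of 9.12e-07 (n = 3 per group).

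SIG6 (AT2G36990, chromosome 2, 15537225 to 15540139, minus strand), which acts on many PEP promoters in young cotyledons, had 1706, 1445 and 1380 normalised reads in the epl1ab-labelled libraries. Col-0 had 4794, 5187 and 4651. Replicate 1 was the highest of the epl1ab-labelled libraries, and all of them lay below each Col-0 library. edgeR gave a log2 fold change of -1.69, SE 0.10, with an adjusted p of 4.17e-06 (n = 3 per group).

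SIG3 (AT3G53920, chromosome 3, 19960789 to 19963980, minus strand), a factor linked to transcription from the psbN promoter, had 996.3, 891.2 and 856.0 normalised reads in the epl1ab-labelled libraries. In the Col-0 libraries it had 2713, 3114 and 2850. The groups again lay apart, at a log2 fold change of -1.66, SE 0.09 (adjusted p from edgeR = 3.11e-06, n = 3 per group).

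SIG4 (AT5G13730, chromosome 5, 4429095 to 4430901, minus strand) drives ndhF, a plastid gene for the NADH dehydrogenase-like complex. It had 989.4, 810.2 and 656.1 normalised reads in the epl1ab-labelled libraries, against 2625, 2668 and 2452 in Col-0. It varied most among the 5 genes within the epl1ab-labelled group, where the SD was 20.4% of the mean, against 4.43% in Col-0. Its log2 fold change was -1.66, SE 0.15, and the adjusted p from edgeR was 2.57e-05 (n = 3 per group). The 3′ end of SIG4 overlaps AT5G13720, a gene on the opposite strand, by 201 bases. AT5G13720 was also lower, with 410.3, 368.4 and 410.0 normalised reads in the epl1ab-labelled libraries and 1369, 1417 and 1495 in Col-0. Libraries came from a stranded kit, but no source used here says whether counting used the strand, so part of the reads of either gene may come from the other.

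edgeR thus called 1 of the 5 genes higher and 4 lower. Of all 4773 genes in the fit, 63.1% were called higher and 36.9% lower. With DESeq2 size factors of the listed genes, 1585 were called higher and 1806 lower, with log2 fold changes shifted by a median of -1.11; SIG2, SIG6, SIG3 and SIG4 were then at -3.12, -2.79, -2.76 and -2.75. In the edgeR fit, for 99.3% of genes the libraries of the groups did not overlap, as was the case for all 5 sigma factor genes. These shares follow from how the tables were selected. When replicate 1 alone stood for the epl1ab-labelled group, the log2 fold changes were -1.93 for SIG2, -1.52 for SIG6, -1.54 for SIG3 and -1.38 for SIG4. Among the genes called higher, 27.6% rose by more than SIG5, and the median rise was 1.76 on the log2 scale. Among the genes called lower, 20.9% fell by more than SIG2, and 34.2%, 36.2% and 36.5% fell by more than SIG6, SIG3 and SIG4, beside a median log2 fold change of -1.44. Their Col-0 levels were higher than those of most genes listed in the same direction, with 63.6% to 85.0% of such genes below them.

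**Figure D1:**
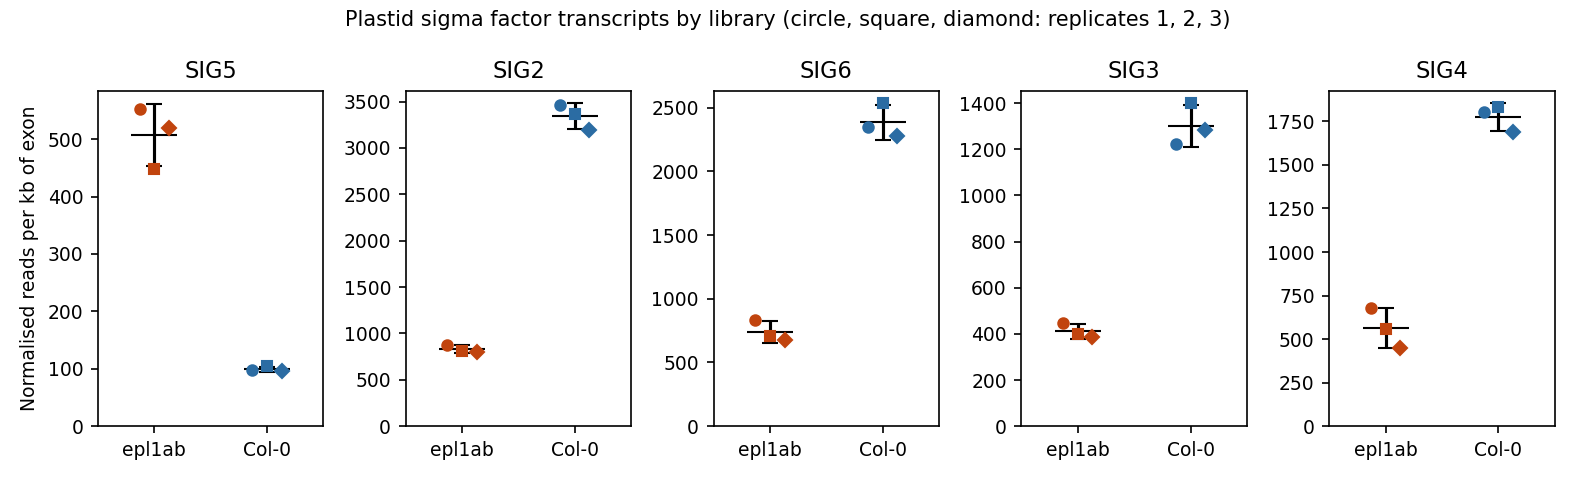
Normalised reads per kilobase of annotated exon (vertical axis, from 0, a separate scale per gene) of SIG5, SIG2, SIG6, SIG3 and SIG4 in 3 epl1ab-labelled and 3 Col-0 libraries; points are libraries, and the bar and whiskers are the mean and SD. SIG5 lies at 448 to 553 in the epl1ab-labelled libraries, above 96.3 to 104.0 in Col-0, and the other genes lie lower in the epl1ab-labelled libraries with no overlap.

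**Figure D2:**
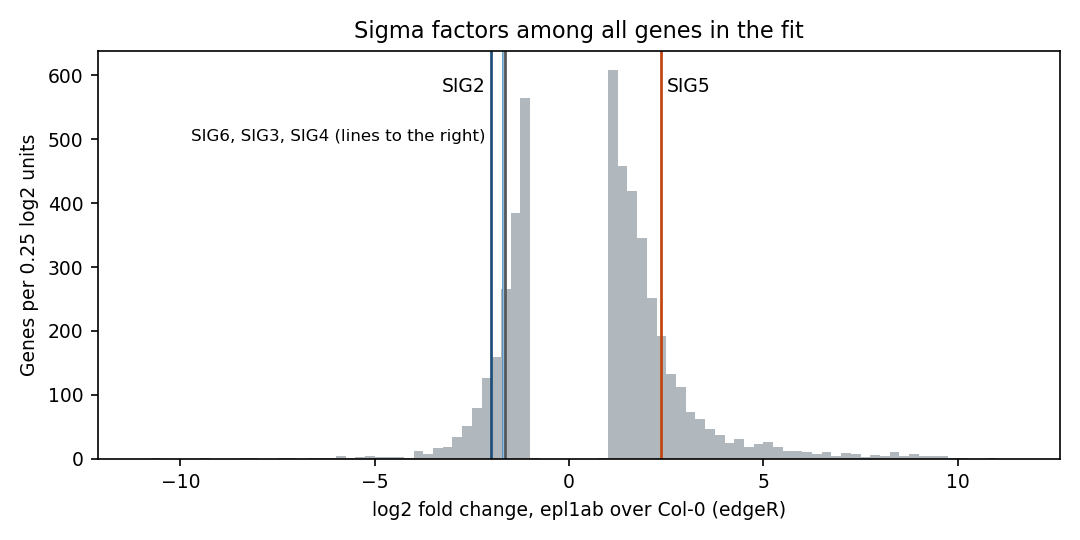
Number of genes (vertical axis) by edgeR log2 fold change of epl1ab over Col-0 (horizontal axis, bins of 0.25) for all 4773 genes in the fit, with vertical lines at the 5 sigma factor genes. Genes near 0 are missing because the tables hold genes past a log2 fold change of 1, and the sigma factors lie among the bulk of the changed genes, SIG5 at 2.35 and the others from -2.01 to -1.66.

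The order of the sigma factors changed between the genotypes when levels were set per kilobase of exon. In the epl1ab-labelled libraries the level per kilobase was 828 ± 43 for SIG2, 739 ± 84 for SIG6, 563 ± 115 for SIG4, 507 ± 54 for SIG5 and 412 ± 33 for SIG3 (SD, n = 3), and the ranges of each pair of neighbours in that order overlapped. In Col-0 it was 3340 ± 140 for SIG2, 2386 ± 136 for SIG6, 1776 ± 79 for SIG4, 1302 ± 92 for SIG3 and 99.1 ± 4.19 for SIG5 (SD, n = 3), and there the ranges of neighbours did not overlap. SIG5 thus stood among the others in the epl1ab-labelled libraries and apart at the bottom in Col-0. The sum over the 5 genes was 3393, 2923 and 2828 normalised reads per kilobase in the epl1ab-labelled libraries and 8936, 9240 and 8531 in Col-0. The epl1ab-labelled mean was thus 34.2% of the Col-0 mean (exact permutation test over libraries, two-sided, p = 0.1). This p is the smallest that 3 against 3 can give. The test cannot decide whether the summed level fell, because 4 of the 5 genes were listed lower on these same libraries. The percentage also depends on the scaling factors of the libraries, and no other set was tried for it.

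Shares within a library do not depend on how libraries are scaled. SIG5 made up 16.3%, 15.3% and 18.4% of the summed reads per kilobase of the 5 genes in the epl1ab-labelled libraries, against 1.09%, 1.12% and 1.13% in Col-0. SIG2 made up 25.8%, 27.7% and 28.2%, against 38.8%, 36.4% and 37.4%. The shares of SIG6 were 24.2 ± 0.36% and 26.8 ± 0.62% (SD, n = 3 each), and the shares of SIG4 and SIG3 overlapped between the groups. These are shares of transcripts of 5 genes and leave SIG1 out. Shares have a fixed sum, so a larger SIG5 share makes the others smaller. The smaller share of SIG6 is therefore not by itself a fall against SIG3 or SIG4.

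**Figure D3:**
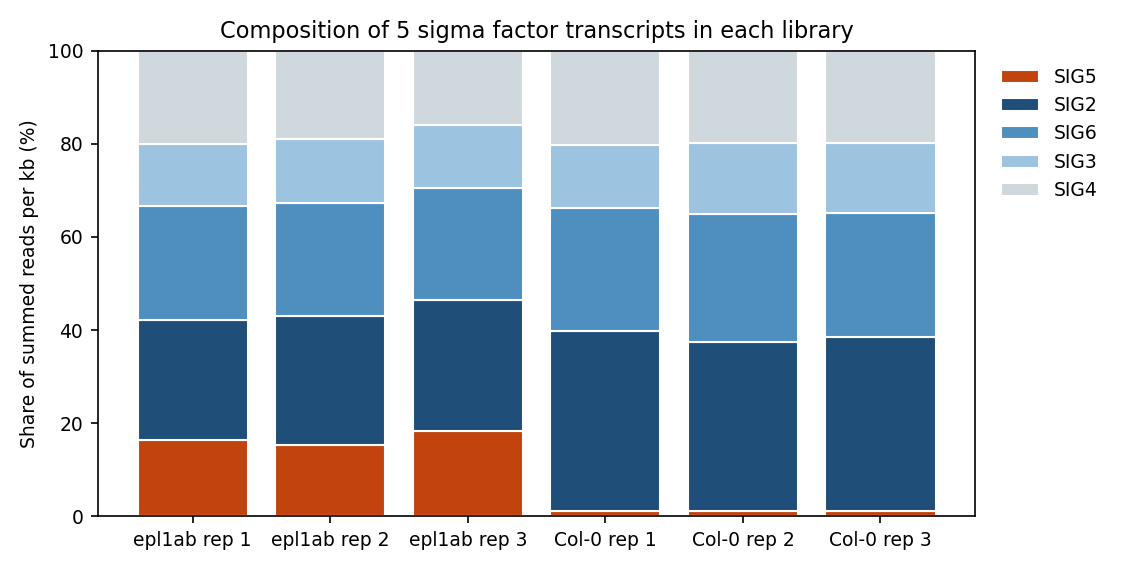
Stacked bars give the share (%) of each of 5 sigma factor transcripts in their summed normalised reads per kilobase of exon, for 3 epl1ab-labelled libraries (left) and 3 Col-0 libraries (right). SIG5 takes 15.3% to 18.4% of the sum in the epl1ab-labelled libraries and 1.09% to 1.13% in Col-0, and the share of SIG2 is smaller in the epl1ab-labelled libraries.

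Ratios between members were compared for all 10 pairs from the raw reads of the same library. The log2 ratio of SIG5 to SIG2 was -0.30, -0.49 and -0.25 in the epl1ab-labelled libraries and -4.79, -4.65 and -4.69 in Col-0, a difference of 4.36 ± 0.08 (SE). Against SIG3, SIG4 and SIG6 the difference was 4.01, 4.03 and 4.05. SIG2 fell further than the other members: the log2 ratio of SIG6 to SIG2 was higher in the epl1ab-labelled libraries by 0.32 ± 0.07, that of SIG3 to SIG2 by 0.35 ± 0.08 and that of SIG4 to SIG2 by 0.34 ± 0.13 (SE, n = 3 per group). In these 7 pairs the groups did not overlap, and each had an exact permutation p of 0.1, the smallest possible, or 0.143 after Benjamini-Hochberg adjustment over 10 pairs. The design therefore could not pass 0.05 for any pair. In the pairs with SIG5, the lack of overlap follows largely from the selection. SIG5 was listed higher and the other members lower on these same libraries. Among SIG3, SIG4 and SIG6 the ratios overlapped between the groups, with differences of -0.01 ± 0.12 for SIG4 to SIG3, 0.02 ± 0.09 for SIG4 to SIG6 and 0.03 ± 0.04 for SIG3 to SIG6 (SE; exact permutation p = 1, 0.9 and 0.5).

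The profiles over the 6 libraries were compared as a description. Likeness was taken as the root mean square difference of log2(normalised reads + 1), each gene set relative to its own Col-0 mean. It was 0.05 between SIG6 and SIG3, 0.09 between SIG6 and SIG4 and 0.12 between SIG3 and SIG4. SIG2 lay 0.23 to 0.27 from these genes, and SIG5 lay 2.83 to 3.08 from all others. Other genes lay closer: by closeness SIG4 ranked 92 for SIG6 and 182 for SIG3, and SIG3 ranked 13 for SIG6. In the other direction SIG6 ranked 12 for SIG4 and 9 for SIG3, and SIG3 ranked 64 for SIG4. Of 3682 other nuclear genes with a mean of at least 50 normalised reads, the 5 closest to SIG5 were PCO1 at 0.09, AT1G66540 and LAC1 at 0.10, and PCO2 and AT4G17098 at 0.11. PCO1 and PCO2 encode plant cysteine oxidases, enzymes of oxygen sensing, LAC1 is a laccase and AT4G17098 is described only as other RNA. PCO1 had 553.1, 528.5 and 537.2 normalised reads in the epl1ab-labelled libraries and 108.0, 112.8 and 109.8 in Col-0. PCO2 had 732.3, 632.7 and 733.0 against 143.0, 136.4 and 154.9. Closest to SIG2 were AT1G53800 and the amino acid kinase family gene AT3G18680, each at 0.02. SIG6 was closest to the thylakoid protease DEGP1 at 0.02 and to AT1G56500 at 0.03. SIG3 was closest to ARASP2, described as a chloroplast metalloprotease, at 0.03 and to ndhS at 0.04. SIG4 was closest to ndhL at 0.05 and to AT3G22150 at 0.08; ndhS and ndhL encode subunits of the plastid NADH dehydrogenase-like complex.

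The 250 bases before the annotated start of each gene were searched on both strands for 6 short elements: the G-box CACGTG and its core ACGT, which bZIP factors such as HY5 can bind, the evening element AAATATCT and the CCA1-binding site AAAAATCT of the clock, the I-box GATAAG of light-regulated genes, and CCAATC, an element found before genes that GLK factors activate. The sequences are shown for SIG5, which rose, and for SIG2, SIG3 and SIG4, which fell and hold a clock or GLK-associated match. They were read 5′ to 3′ along the gene's strand from the TAIR10.1 assembly, in which all 5 genes have the deposited start and end, with matches in capitals; the SIG2 stretch is cut to the 132 bases that separate it from the neighbouring gene.
SIG5 promoter, chr5:8160344-8160593, minus strand: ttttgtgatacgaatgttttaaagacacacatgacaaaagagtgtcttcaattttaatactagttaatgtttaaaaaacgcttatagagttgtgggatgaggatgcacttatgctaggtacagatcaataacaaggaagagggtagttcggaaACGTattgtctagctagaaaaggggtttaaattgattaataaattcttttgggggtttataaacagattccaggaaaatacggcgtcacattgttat
SIG2 promoter, chr1:2703163-2703294, plus strand: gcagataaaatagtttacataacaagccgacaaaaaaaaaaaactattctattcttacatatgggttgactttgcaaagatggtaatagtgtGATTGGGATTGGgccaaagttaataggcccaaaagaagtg
SIG3 promoter, chr3:19963981-19964230, minus strand: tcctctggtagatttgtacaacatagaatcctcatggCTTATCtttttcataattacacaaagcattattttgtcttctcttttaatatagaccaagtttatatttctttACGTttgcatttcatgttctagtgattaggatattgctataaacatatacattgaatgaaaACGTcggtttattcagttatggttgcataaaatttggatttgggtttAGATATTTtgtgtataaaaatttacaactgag
SIG4 promoter, chr5:4430902-4431151, minus strand: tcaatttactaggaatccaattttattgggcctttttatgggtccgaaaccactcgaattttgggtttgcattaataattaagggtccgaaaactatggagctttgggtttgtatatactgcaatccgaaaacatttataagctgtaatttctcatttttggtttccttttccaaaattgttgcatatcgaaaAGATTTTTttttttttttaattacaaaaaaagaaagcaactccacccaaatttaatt

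Counting the last base before the start as -1, SIG5 held a single match, an ACGT core at -97, and 44.1% of 27443 protein-coding promoters of this length hold at least 1. SIG2 held CCAATC on the opposite strand at -40 and again at -34, side by side without overlap; 10.2% of promoters hold this element. SIG3 held an ACGT core at -140 and at -79, and on the opposite strand an I-box at -213 and an evening element at -32. These elements are present in 44.1%, 12.3% and 4.79% of promoters. SIG4 held a CCA1-binding site on the opposite strand at -57, present in 6.69%, and SIG6 held none of the elements. Only 106 bases of the SIG6 window lie between it and the neighbouring gene, and the rest reaches into that gene. No G-box lay in any of the 5 windows, against 6.49% of all promoters. Such matches describe letters in these windows and do not show binding.

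Among light and clock regulators known to act on SIG5 or on the same light responses, 3 of 11 were listed, and edgeR called all 3 higher, with a median log2 fold change of 2.32, beside 63.1% of genes in the fit called higher and a median of 1.26 for all of them. Being called follows from being listed, and HY5 was not called with DESeq2 size factors of the listed genes (log2 fold change 0.04, DESeq2 adjusted p = 0.848). HYH, a bZIP factor of light signalling, had 677.8, 707.9 and 767.3 normalised reads in the epl1ab-labelled libraries and 147.0, 110.6 and 173.2 in Col-0. Its log2 fold change of 2.32 ± 0.18 (SE) stood beside 2.35 ± 0.11 for SIG5. HY5, its partner, had 760.0, 893.1 and 911.3 against 390.0, 314.7 and 449.0, at a log2 fold change of 1.15 ± 0.15 (SE). CCA1, a clock transcription factor of the morning, had 927.1, 751.3 and 864.4 against 73.0, 62.3 and 50.0, which is 3.77 ± 0.18 log2 units higher (SE; adjusted p from edgeR = 1.92e-06, n = 3 per group). The photoreceptor genes CRY1, CRY2, PHYA and PHYB and the regulators LHY, ELF3, TOC1 and COP1 were not in the tables.

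Most PEP-associated proteins were listed lower, while few of the kinases and polymerases looked up were in the tables. CSK, a chloroplast sensor kinase that acts on SIG1, had 1050, 1026 and 996.6 normalised reads in the epl1ab-labelled libraries against 3040, 3140 and 2918 in Col-0, at a log2 fold change of -1.57, SE 0.07 (adjusted p from edgeR = 1.3e-06, n = 3 per group). It was the 1 of 5 partners and kinases in the tables. Of 12 PEP-associated proteins 11 were called lower and 0 higher, with a median log2 fold change of -1.68 and a range from -2.34 for PTAC7 to -1.02 for MURE, beside 36.9% of genes in the fit called lower. The SIG3, SIG4 and SIG6 values lay near that median. RPOTP, the phage-type polymerase of the plastid, had 2332, 2216 and 2021 normalised reads against 4779, 4637 and 4114, and rpoA, the plastid gene for a PEP core subunit, had 32.0, 34.7 and 21.8 against 96.0, 66.6 and 50.0. These were 2 of 6 polymerase genes in the tables, and both were called lower.

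Plastid genes with promoters known to be served by sigma factors were lower where listed. Of 11 such genes 6 were in the tables, and edgeR called 6 lower and 0 higher, with a median log2 fold change of -1.41, beside 36.9% of genes in the fit called lower and a median of 1.26. As every gene in the fit was called, that all 6 were called follows from their being listed. For SIG5, the listed target psbD had 414.6, 407.0 and 343.9 normalised reads in the epl1ab-labelled libraries and 1089, 1098 and 771.1 in Col-0 (log2 fold change -1.34, SE 0.16; adjusted p from edgeR = 0.000125, n = 3 per group). psbD was thus lower in the libraries in which SIG5 was higher. Its deposited row spans 32711 to 35141 of the plastid genome, which also covers psbC, so the reads of the genes cannot be told apart. The photosystem gene psbA, likewise a target of SIG5, had 1047, 960.6 and 864.4 against 2075, 2097 and 1579. For SIG2, psaJ had 11.3, 10.6 and 10.04 against 58.0, 36.5 and 29.3 normalised reads, a 3.88-fold fall that rests on few reads. The other listed genes, psaB of photosystem I, rbcL of Rubisco and atpH of the ATP synthase, had log2 fold changes of -1.05, -1.52 and -1.47. The targets psbN of SIG3 and ndhF of SIG4 were not in the tables. How fully the libraries sampled plastid transcripts is not known.

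**Figure D4:**
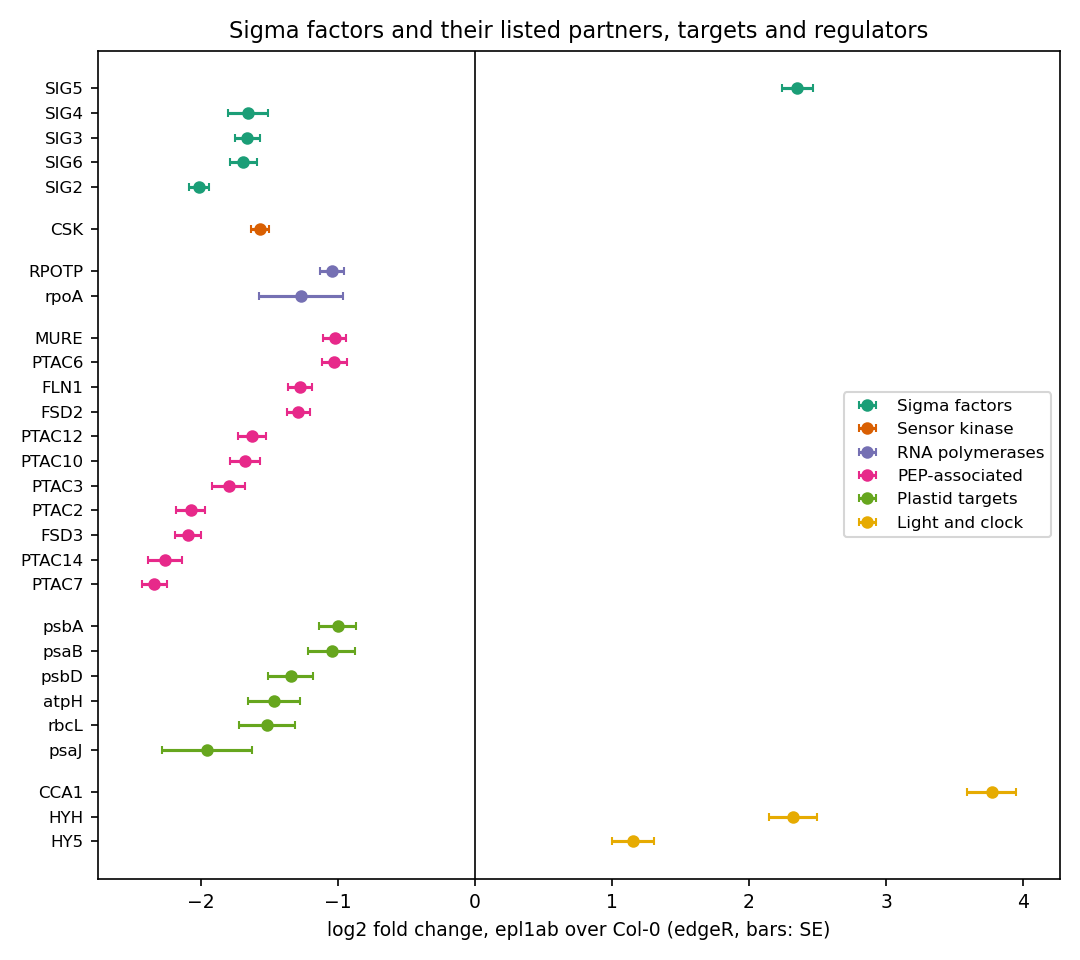
Points give the edgeR log2 fold change of epl1ab over Col-0 (horizontal axis) with its SE as a bar, for the listed sigma factors, the sensor kinase CSK, RNA polymerase genes, PEP-associated proteins, plastid target genes and light and clock regulators. SIG5 at 2.35 lies on the side of HY5 at 1.15, HYH at 2.32 and CCA1 at 3.77. The other sigma factors lie between -2.01 and -1.66 among the PEP-associated proteins.

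SIG5 also lies in a stretch of chromosome 5 in which most genes were listed higher, a pattern described after the values were seen. Of 5 protein-coding genes within 10 kb of it 4 were listed higher. At least 4 such neighbours were found for 0.816% of all protein-coding genes and for 1.69% of those listed higher. AT5G24100, described as an inactive receptor-like kinase, had 97.8, 142.7 and 119.7 normalised reads in the epl1ab-labelled libraries and 20, 15.04 and 21.96 in Col-0. SQP2, a squalene monooxygenase, had 44.1, 37.6 and 65.3 against 22.0, 16.1 and 23.2, and was not called with DESeq2 size factors of the listed genes (log2 fold change 0.15, DESeq2 adjusted p = 0.792). AT5G24130, whose function is not described, had 2.60, 122.5 and 246.9 normalised reads and 0 in all Col-0 libraries; it was low in replicate 1, as the seed maturation transcripts were. WRKY30, a stress-responsive transcription factor, had 149.8, 71.4 and 46.0 against 31.0, 11.8 and 56.1, and its groups overlapped (edgeR adjusted p = 0.0471). It was not called in 8 of 13 alternatives, among them without epl1ab replicate 1 (log2 fold change 0.85), epl1ab replicate 2 (1.58), Col-0 replicate 1 (1.40) or Col-0 replicate 2 (1.04). Near the falling members, SIG2 had 1 neighbour listed lower, CHLD, a subunit of the magnesium chelatase of chlorophyll synthesis. Its deposited row had 5425, 5268 and 5032 normalised reads against 16987, 17035 and 15720. That row spans 2696381 to 2703162 of chromosome 1, which takes in the end of AT1G08530, 133 bases before SIG2. The reads of CHLD and AT1G08530 therefore cannot be told apart. SIG6 had 1 neighbour listed in each direction, SIG3 had 1 listed higher (AT3G53940, at -0.0074 log2 units with DESeq2 size factors of the listed genes) and SIG4 had 2 listed lower, AT5G13720 and AT5G13690.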

How the data were processed

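Per the file headers, the 2 deposited tables, one per direction of change, hold raw read counts per gene for 6 libraries, p-values with false discovery rates, and a log2 fold change of epl1ab over Col-0. The submitters' processing notes name TAIR10 and DESeq2; no aligner, counter or strand setting is given in the sources used here. Per the labels' protocols, total RNA depleted of ribosomal RNA was read from one end over 50 bases, with 40 M reads or more per library.

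Because the tables hold selected genes, the authors' scaling was recovered by least squares from their log2 fold changes over the 1774 genes that have 200 or more reads in each library (median absolute residual 0.00029 log2 units). These factors served as library sizes in edgeR's quasi-likelihood test of all counts (edgeR 4.0.16 with limma 3.58.1 under R 4.3.3), without a replicate block. Its expression filter kept 4773 genes, over which p-values were adjusted by Benjamini-Hochberg. This step was tested on simulated counts. All 4773 were called, since the genes had been selected on these libraries, so an adjusted p-value says nothing about the error rate among all expressed genes, and it measures only the spread between these libraries. An SE is the size of the log2 fold change divided by the root of its F statistic. In 15 rows the locus was reassigned by exact start and end, and 98.58% of 5297 matched nuclear genes have the same coordinates in TAIR10.1. Lengths are the union of annotated exons.

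Members, gene lists, elements and tests were chosen with earlier results of these data known. All members, every listed gene of the lists, and genes of most similar profile were named by rule; neighbours within 10 kb were added after their values were seen. Alternatives were TMM factors, DESeq2 1.42.0 with 2 sets of factors, no filter, factors from genes with at least 50 reads, a replicate block, each library left out, and replicate 1 alone as the epl1ab-labelled group, the last added after seeing the data. Python 3.11.15, numpy 2.4.6, scipy 1.17.1, pandas 2.3.3 and matplotlib 3.10.9 were used.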

Additional observations from a re-analysis of the deposited data

How the results depend on the processing

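The calls of 1 sigma factor higher and 4 lower were the same under all 13 alternatives, as were the counts of each gene list to within 1.5 times. The log2 fold change ranged from 1.25 to 2.48 for SIG5, from -3.12 to -1.93 for SIG2, from -2.79 to -1.52 for SIG6, from -2.76 to -1.54 for SIG3 and from -2.75 to -1.38 for SIG4, with a largest adjusted p of 0.00045. Leaving out each library in turn gave 2.29 to 2.44 for SIG5 and -1.82 to -1.52 for SIG4. The lower end for SIG5 came from DESeq2 size factors of the listed genes, which shift all log2 fold changes by -1.11 (TMM factors shift them by -0.43). With those size factors AT3G53940, near SIG3, was at -0.0074, against 1.098 in the edgeR fit, and HY5, WRKY30 and SQP2 were not called. WRKY30 was not called in 8 alternatives. Within-library ratios do not depend on the scaling.

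With a replicate block the log2 fold change was 2.35 for SIG5 and -2.01 for SIG2, and the block changed the call of WRKY30 (adjusted p = 0.0583) but of no other named gene. Deviations from the group means over 2752 genes correlated by -0.06, -0.21 and 0.15 between libraries with the same number. Between libraries with different numbers the correlations ran from -0.19 to 0.23. With 3 libraries per group these values cannot decide whether libraries of the same number came from the same experiment.

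The tables hold genes past the authors' thresholds, so sigma factors and partners that missed them are not analysed here, and low counts limit psaJ and rpoA.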
